A study of Mus musculus with 6 samples.

Results

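Cholesterol and fatty acid synthesis genes were described across 6 arrays of mouse Th2 cells. The list held 35 genes: 18 enzymes of the sterol pathway, the geranylgeranyl synthase Ggps1, 5 genes of the sterol-sensing SREBP system, the sterol carrier Stard4, 8 genes that make or modify fatty acids, and the sterol exporters Abca1 and Abcg1. They were chosen by function and not by a measured value. Where several probe sets named a gene alone, the one that was brightest on average (log2 signal, 6 arrays) was used, which gave values for 34 of the 35 genes, of 18194 genes read in this way. Acat2, whose enzyme joins acetyl-CoA units at the head of the pathway, had no probe set of its own and was not analysed here.

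Cholesterol is built from acetyl-CoA by way of mevalonate, isoprenoids, squalene and lanosterol. When sterols in the endoplasmic reticulum fall, SCAP escorts the SREBP transcription factors (encoded by Srebf1 and Srebf2) to the Golgi, where they are cut and released to switch on the genes of sterol and fatty acid synthesis. The INSIG proteins hold SCAP back when sterols are plentiful, and oxysterols act through the nuclear receptor LXR to raise the exporters ABCA1 and ABCG1. T cells are known to use this programme when they are activated and grow, since dividing cells need membrane.

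Splenic CD4 T cells of young adult C57BL/6 mice were stimulated in culture with anti-TCR and anti-CD28 mAb. Th2-4th cells, called fully developed Th2 cells, had first had 5 days of Th2 culture with IL-4 and IL-2. They had then gone through repeated cycles of rest without cytokines and restimulation with anti-TCR mAb, IL-2 and an IL-4 blocking antibody. Th2-1st cells, the effector Th2 cells, had only the first 5 days of culture, with IL-4 at 100.0 U/ml and IL-2 at 25.0 U/ml. The 2 cultures thus differ in the number of cycles and also in whether the last cycle had IL-4 or its blocking. In each culture 1 array held cells with GATA3 siRNA stimulated for 4 h with immobilized anti-TCR mAb, 1 held cells with control siRNA stimulated in the same way, and 1 held cells with control siRNA and no stimulation. All 6 conditions had been nucleofected with siRNA 24 h before. No unstimulated array with GATA3 siRNA was analysed here. A single GATA3 siRNA was used, so in either culture loss of GATA3 and any off-target action of the siRNA cannot be told apart.

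With 1 array per condition there are no replicates, and differences are given without a p-value. A ratio over 2 or under 0.5 counted as a change. Beside a log2 ratio stands the robust SD of that log2 ratio among the 500 genes nearest in mean signal, called the spread below, which includes real changes and is no replicate error. Signals are linear array intensities, and the arrays, which share 1 trimmed mean, had medians of 61.8 to 74.2. Gata3 read 2853 in Th2-4th cells with GATA3 siRNA, against 9261 with control siRNA (log2 ratio -1.70), and 1798 in Th2-1st cells with GATA3 siRNA, against 4883 with control siRNA (log2 ratio -1.44). All 6 measured T cell markers lay above the array median on every array, whereas 0 or 1 of 2 B cell markers and 1 or 2 of 5 myeloid markers did. Of 3 measured CD8 T and NK cell markers, 2 (Cd8a and Cd8b1) lay above it on every array. Cd8b1 read 110 in unstimulated Th2-4th and 342 in unstimulated Th2-1st cells (log2 ratio -1.63), and Cd8a 124 and 126 in the same order. Centring the arrays on their medians moved the median ratio of all genes by -0.25 (unstimulated) and -0.24 (stimulated) for Th2-4th over Th2-1st cells and by -0.17 for the knockdown in Th2-1st cells, and by 0.04 at most for the other 3 comparisons. Quantile normalization moved it by -0.15 for unstimulated Th2-4th over Th2-1st cells.

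Of the 34 genes, 31, 30 and 33 lay above the array median on the Th2-4th arrays with GATA3 siRNA, with control siRNA and stimulation, and with control siRNA alone. On the Th2-1st arrays in the same order, 34, 33 and 34 did. Most of the programme was therefore read well above the middle of the arrays, and the genes close to it were Mvk, Mvd, Dhcr7, Tm7sf2, Scd1, Fads1 and Fads2.

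**Figure D1:**
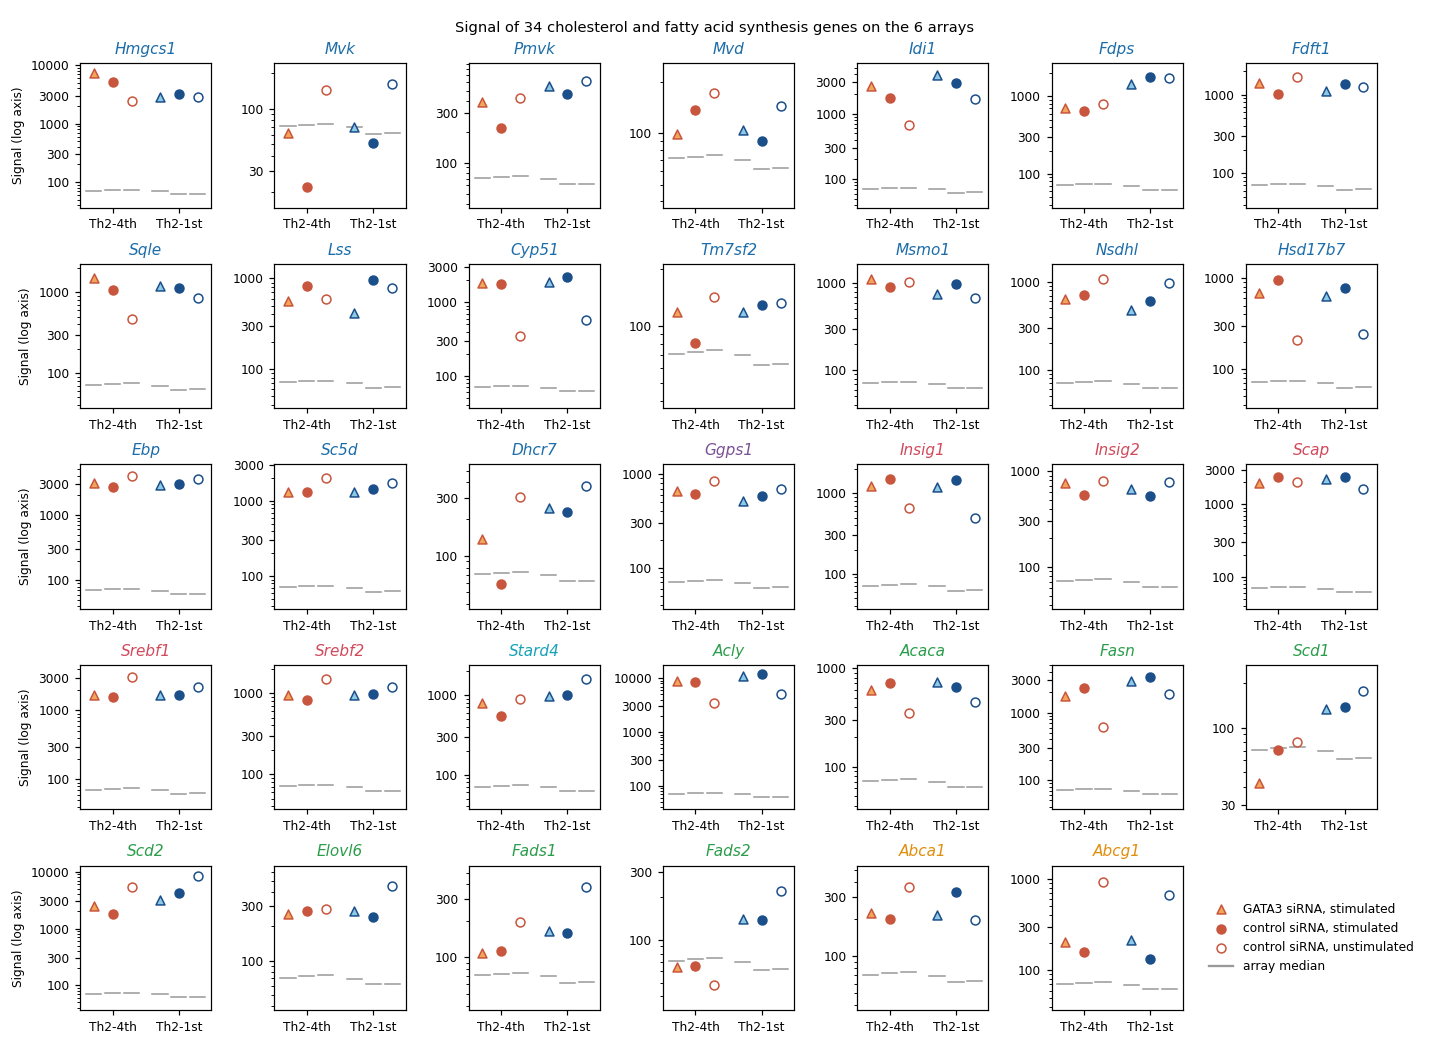
Linear signal (log axis) of each of the 34 genes on the 6 arrays, with Th2-4th arrays on the left and Th2-1st arrays on the right of each panel, and in each culture GATA3 siRNA stimulated (triangle), control siRNA stimulated (filled circle) and control siRNA unstimulated (open circle). Each point is 1 array, grey bars mark the array medians, and gene names are coloured by role (sterol enzymes blue, Ggps1 purple, SREBP system red, Stard4 turquoise, fatty acid genes green, exporters orange). Cyp51, Hsd17b7, Insig1 and Acly were higher on both stimulated control arrays than on the unstimulated ones, and Mvk, Scd2 and Abcg1 were lower.

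Promoters are shown for 4 genes that moved past 2-fold after stimulation of Th2-4th cells, because SREBP and its partner NF-Y are known to bind short motifs near the start of such genes. The windows of 300 bases lie mostly before the start of the gene and end 50 bases after it (RefSeq, GRCm38.p6), and 27 of the 35 genes had at least 1. Some genes had several windows, and a motif counted for a gene when any of its windows held it. Hmgcs1 was the only one with the sterol regulatory element searched for (TCACNCCAC), and the other 3 were chosen after their values were seen: Insig1 and Fasn, which were higher after stimulation, and Mvk, which was lower. Capitals mark the sterol regulatory element, the CCAAT box that NF-Y binds (CCAAT, or ATTGG on the other strand) and the E-box (CACGTG).
Hmgcs1 (chr13:119690101-119690400, + strand): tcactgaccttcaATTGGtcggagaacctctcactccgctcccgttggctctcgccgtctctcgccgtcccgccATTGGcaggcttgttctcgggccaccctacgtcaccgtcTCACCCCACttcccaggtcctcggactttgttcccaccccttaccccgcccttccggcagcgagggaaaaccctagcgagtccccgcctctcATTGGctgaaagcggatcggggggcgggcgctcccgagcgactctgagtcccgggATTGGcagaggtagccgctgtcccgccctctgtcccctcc
Insig1 (chr5:28071162-28071461, + strand): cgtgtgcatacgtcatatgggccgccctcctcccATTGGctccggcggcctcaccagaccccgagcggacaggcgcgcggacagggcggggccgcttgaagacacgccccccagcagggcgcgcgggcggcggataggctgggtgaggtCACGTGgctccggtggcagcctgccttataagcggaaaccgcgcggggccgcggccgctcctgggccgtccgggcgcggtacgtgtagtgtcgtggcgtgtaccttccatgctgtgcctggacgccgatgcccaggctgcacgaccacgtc
Fasn (chr11:120824498-120824797, - strand): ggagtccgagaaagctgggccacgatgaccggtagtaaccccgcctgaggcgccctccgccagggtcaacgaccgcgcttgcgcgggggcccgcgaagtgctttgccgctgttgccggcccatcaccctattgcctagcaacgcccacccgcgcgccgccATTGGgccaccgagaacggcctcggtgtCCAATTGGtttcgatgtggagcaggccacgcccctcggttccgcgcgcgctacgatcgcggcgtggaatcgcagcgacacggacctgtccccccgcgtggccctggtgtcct
Mvk (chr5:114444019-114444318, + strand): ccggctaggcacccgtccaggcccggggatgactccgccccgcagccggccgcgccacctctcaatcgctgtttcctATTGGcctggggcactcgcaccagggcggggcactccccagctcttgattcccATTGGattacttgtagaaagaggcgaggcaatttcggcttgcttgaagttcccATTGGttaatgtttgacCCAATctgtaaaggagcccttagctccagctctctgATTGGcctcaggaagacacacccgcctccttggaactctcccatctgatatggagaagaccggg
The Hmgcs1 window held 1 sterol regulatory element and 4 CCAAT boxes, the Insig1 window 1 CCAAT box and 1 E-box, the Fasn window 3 CCAAT boxes, of which 1 pair overlaps in a run of 8 capitals, and the Mvk window 5 CCAAT boxes. Over both strands, a CCAAT box was found in 21 of 26 measured genes of the list with a window (80.8%), against 42% of 14453 measured genes. The E-box was found in 6 of the 26 (23.1%), against 10.2%, and the sterol regulatory element in 1 (3.85%), against 1.46%. In Th2-4th cells, 7 of the 8 genes over 2-fold after stimulation that had a window held a CCAAT box, as did both of the genes under 0.5-fold that had one and 12 of the 16 between the thresholds. Of the lowered genes, Dhcr7 held the box only in its window at chr7:143829964-143830263 and not in its other windows. The box was thus present in genes that went up and in genes that went down. These matches describe letters in a window and are not shown to be bound.

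Anti-TCR stimulation of Th2-4th control cells raised 9 of the 34 genes over 2-fold and lowered 4 under 0.5-fold, while the median gene of the list was lower (log2 ratio -0.39, against -0.10 for all genes). Of all 18194 genes, 18.7% were over 2-fold and 21.6% under 0.5-fold, and no test set the list apart from the array. Of the 33 genes with at least 1 signal of the pair above the array median, 9 were over and 4 under, against 14.6% and 21.0% of 11186 genes. The 9 raised genes were Hmgcs1, Idi1, Sqle, Cyp51 and Hsd17b7 of the sterol pathway, the SREBP target and brake Insig1, and Acly, Acaca and Fasn, which carry acetyl-CoA into fatty acids. The 4 lowered genes were Mvk and Dhcr7 of the sterol pathway, the desaturase gene Scd2 and the exporter gene Abcg1. In bulk RNA, a smaller share of cells of 1 type and less RNA per cell cannot be told apart.

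Cyp51 encodes the lanosterol demethylase, the first enzyme after the sterol rings are closed. It read 1748 on the stimulated and 347 on the unstimulated Th2-4th array, and 2218 on the stimulated and 568 on the unstimulated Th2-1st array. These are ratios of 5.04 and 3.90, or log2 ratios of 2.33 (spread 0.91) and 1.96 (spread 0.78). Cyp51 thus gave the highest ratio of the list in both cultures. Hsd17b7 encodes the ketoreductase that works in the removal of methyl groups from the sterol. It read 968 on the stimulated and 208 on the unstimulated Th2-4th array, and 791 against 243 in the same order in Th2-1st cells, log2 ratios of 2.22 and 1.70. Its probe set is of a kind that can cross-hybridise. The brightest Hsd17b7 probe set of another kind gave 0.57 in Th2-1st cells, no longer past the threshold, while dimmer ones gave 1.10 and 1.09.

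Idi1, the isomerase that makes the second isoprenoid building block, read 1739.7 stimulated and 672 unstimulated in Th2-4th cells (log2 ratio 1.37, spread 0.93). In Th2-1st cells it read 2941 stimulated and 1697 unstimulated (0.79, spread 0.83). Sqle encodes squalene epoxidase, a rate-limiting enzyme of the late pathway. It read 1082 stimulated and 474 unstimulated in Th2-4th cells (1.19), and 1147 stimulated and 845 unstimulated in Th2-1st cells (0.44). Hmgcs1 encodes the synthase that makes HMG-CoA, and its promoter with the sterol regulatory element is printed above. Its signal was 5205 stimulated and 2465 unstimulated in Th2-4th cells (1.08), and 3177 stimulated and 2856 unstimulated in Th2-1st cells (0.15). The 3 other bright probe sets of Hmgcs1 gave 0.67 to 0.87 in Th2-4th cells, and their mean with all probe sets left it under the threshold (0.79). For these 3 enzymes the 2-fold threshold was passed in Th2-4th cells alone, the difference between the cultures being 0.93 for Hmgcs1, 0.75 for Sqle and 0.58 for Idi1 on the log2 scale. That difference has no test.

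The remaining sterol enzymes did not follow these 5. Mvk, mevalonate kinase, read 22.1 stimulated and 142 unstimulated in Th2-4th cells, and 51.5 stimulated and 161 unstimulated in Th2-1st cells, log2 ratios of -2.69 (spread 0.88) and -1.65 (spread 0.87). Both stimulated readings lay below the array median, so the size of the fall is poorly set: when signals below the array median were set to it, the Th2-4th log2 ratio was -0.97. A second Mvk probe set, also dim, gave -2.60 and -2.26. Dhcr7 encodes the reductase of the last step to cholesterol. It read 58.4 stimulated and 304 unstimulated in Th2-4th cells (-2.38, spread 0.92), and 229.8 stimulated and 376 unstimulated in Th2-1st cells (-0.71, spread 0.84). Only the Th2-4th stimulated reading lay below its array median. None of the other 10 sterol enzymes passed 2-fold in either culture. Pmvk, which acts next after Mvk, had log2 ratios of -0.96 in Th2-4th and -0.41 in Th2-1st cells, and Nsdhl, the dehydrogenase that works beside Hsd17b7, had -0.60 and -0.72. Squalene synthase (Fdft1) had -0.71 and 0.13, lanosterol synthase (Lss) 0.47 and 0.30, and the methylsterol oxidase Msmo1 -0.21 and 0.53. Fdft1, Lss and Msmo1 lay within the spread at their signal in both cultures, whereas Pmvk passed it in Th2-4th and Nsdhl in Th2-1st cells. The other 5 enzymes, among them the decarboxylase Mvd, the isomerase Ebp and the desaturase Sc5d, lay between -0.80 (the sterol reductase Tm7sf2, Th2-4th) and 0.04 (Fdps, Th2-1st) in both cultures.

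**Figure D2:**
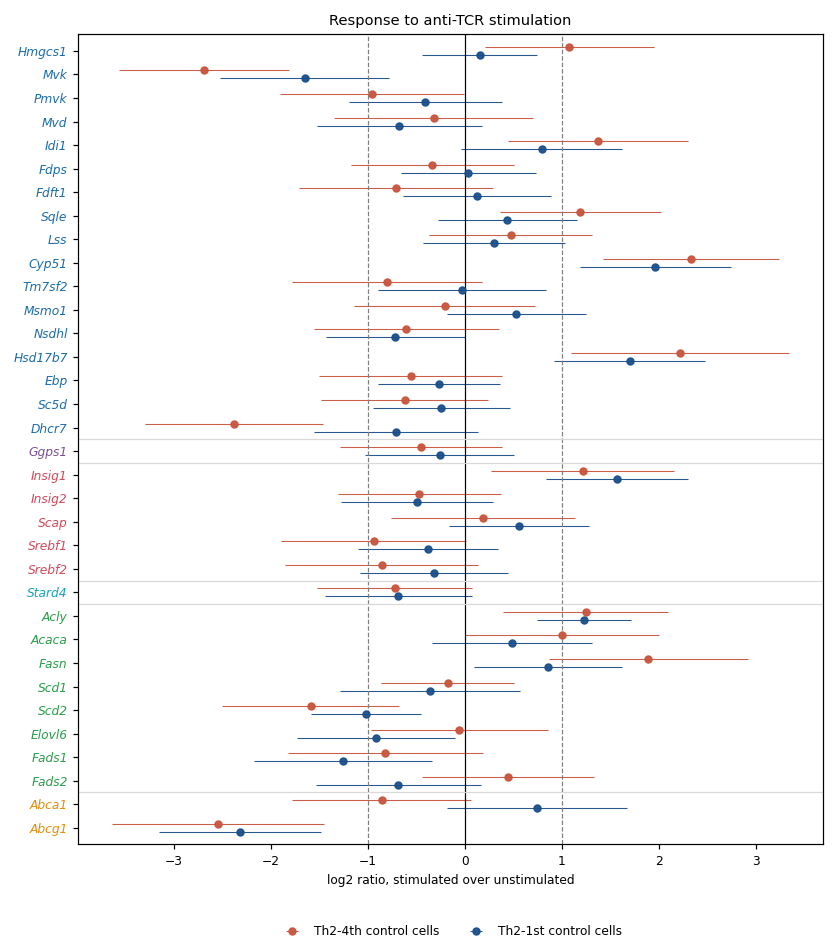
Log2 ratio of stimulated over unstimulated control cells for each of the 34 genes, in Th2-4th (red) and Th2-1st (blue) cells; 1 array per condition. Horizontal bars are the robust SD among 500 genes of like signal, dashed lines mark 2-fold, and grey lines separate the roles. Within the sterol enzymes the ratios ran from -2.69 for Mvk to 2.33 for Cyp51 in Th2-4th cells.

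Among the genes that sense sterols, Insig1 was raised past 2-fold in both cultures and the others were not. Insig1 read 1531 stimulated and 659 unstimulated in Th2-4th cells, and 1451 stimulated and 490.3 unstimulated in Th2-1st cells, log2 ratios of 1.22 and 1.57. Its relative Insig2, which is not driven by SREBP in the same way, had -0.47 and -0.49. The 2 SREBP genes were lower after stimulation in both cultures but short of 0.5-fold: Srebf1 read 1588 stimulated and 3041 unstimulated in Th2-4th cells (-0.94) and had -0.38 in Th2-1st cells, and Srebf2 had -0.86 and -0.32. Scap had 0.18 and 0.56. Signals of Srebf1 and Srebf2 report the mRNA and not the cleaved proteins that act in the nucleus.

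Of the 8 fatty acid genes, 3 were raised and 1 lowered in Th2-4th cells, and 1 was raised and 2 lowered in Th2-1st cells. Acly, which makes cytosolic acetyl-CoA from citrate, read 8366 stimulated and 3529 unstimulated in Th2-4th cells and 11699 stimulated and 5002 unstimulated in Th2-1st cells, with nearly the same log2 ratios of 1.25 and 1.23. Fasn, the fatty acid synthase, read 2281 stimulated and 614 unstimulated in Th2-4th cells (1.89, spread 1.03), and 3385 stimulated and 1867 unstimulated in Th2-1st cells (0.86, spread 0.76). Both Th2-4th readings lay below their Th2-1st counterparts, the unstimulated one by more. Acaca, the acetyl-CoA carboxylase that commits carbon to fatty acids, lay on the threshold in Th2-4th cells (1.01, and 0.87 as the mean over its probe sets) and had 0.49 in Th2-1st cells.

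The desaturase and elongase genes went the other way or did not pass the threshold. Scd2, a stearoyl-CoA desaturase gene, had signals of 1770.4 stimulated and 5323 unstimulated in Th2-4th cells (-1.59), and 4227 stimulated and 8543 unstimulated in Th2-1st cells (-1.02, which centring of the arrays moves to -0.998 and the mean over its probe sets to -0.65). Fads1, a desaturase of polyunsaturated fatty acids, read 112 stimulated and 197 unstimulated in Th2-4th cells (-0.82), and 159 stimulated and 381 unstimulated in Th2-1st cells (-1.26, or -0.62 over its probe sets). Fads2 had 0.45 at signals of 48.1 to 65.6 below the array medians in Th2-4th cells and -0.68 in Th2-1st cells. Elovl6, which lengthens palmitate, had -0.05 and -0.92, and Scd1 had -0.18 and -0.36.

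The exporter gene Abcg1, a target of LXR, read 160.4 on the stimulated and 934 on the unstimulated Th2-4th array, and 134 stimulated and 671 unstimulated in Th2-1st cells. Its ratios of 0.172 and 0.200 (log2 -2.54 and -2.32) were the lowest of the list in Th2-1st cells and the lowest after Mvk in Th2-4th cells. Abca1, the other exporter, had log2 ratios in opposite directions, -0.86 in Th2-4th and 0.75 in Th2-1st cells, both within the spread. Its direction in Th2-4th cells rests on the probe set, since the mean with 2 others, which read below the array medians, was 1.17. Ggps1 had -0.45 and -0.26, and Stard4 -0.72 and -0.68.

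In Th2-1st control cells, stimulation raised 4 of the 34 genes over 2-fold (Cyp51, Hsd17b7, Insig1 and Acly) and lowered 4 under 0.5-fold (Mvk, Scd2, Fads1 and Abcg1), against 17.5% and 16.9% of all genes. All 34 were above the array median in this pair, where 10.7% of 11022 genes were over and 16.7% under. Neither count was tested against the array. The median log2 ratio was -0.25, against -0.01 for all genes. The 2 anti-TCR ratios share no array: 4 genes were over 2-fold in both cultures, 3 under 0.5-fold in both (Mvk, Scd2 and Abcg1) and none in opposite directions, while 11 had a ratio above 0 in both and 18 below 0 in both. Quantile normalization turned the sign of Elovl6 in Th2-4th and of Tm7sf2 in Th2-1st cells, both near 0. Over all 18194 genes, 1455 were over in both, 1686 under in both, and 318 and 491 in opposite directions. A ratio above 0 in both was found for 5999 of them, and below 0 in both for 6753. The difference between the cultures exceeded 1 on the log2 scale for Fads2 (1.13) and Fasn (1.04), and was below -1 for Dhcr7 (-1.67), Abca1 (-1.60) and Mvk (-1.04). Over all 18194 genes it exceeded 1 for 2789 and was below -1 for 3195, and these counts were not tested against the array.

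**Figure D3:**
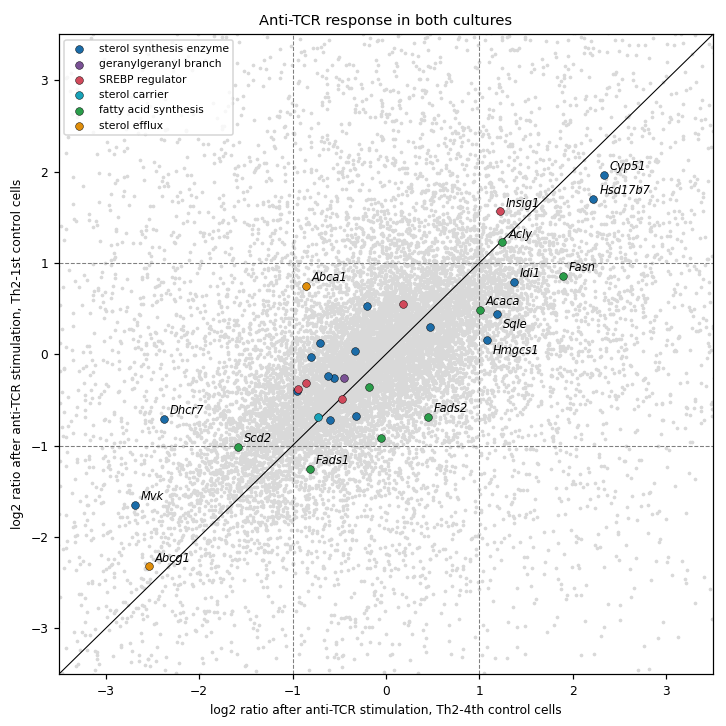
Log2 ratio after anti-TCR stimulation in Th2-4th control cells (x axis) and in Th2-1st control cells (y axis) for all 18194 genes (grey; genes beyond 3.5 are not drawn) and the 34 genes coloured by role. Dashed lines mark 2-fold and the solid line equal ratios; Cyp51, Hsd17b7, Insig1 and Acly lie past 2-fold on both axes at the upper right, and Mvk, Scd2 and Abcg1 at the lower left.

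Between the cultures, none of the 34 genes was over 2-fold and 5 were under 0.5-fold in unstimulated Th2-4th cells, set against unstimulated Th2-1st cells. These were Idi1, Fdps, Fasn, Scd1 and Fads2. Of all genes, 19.5% were over 2-fold and 12.3% under 0.5-fold, and of the 10847 genes above the array median 11.9% and 9.24%. The median log2 ratio was -0.22, whereas that of all genes was 0.17. With the arrays centred, 8 genes were under 0.5-fold and the list's median was -0.47. Of all 18194 genes, 2986 were then under 0.5-fold, with a median of -0.07. The split of all calls depends on the scaling, 61.3% being over 2-fold as deposited, 47.6% after centring and 49.5% after quantile normalization.

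Of these 5 genes, 3 belong to fatty acid synthesis, a role in which all 8 log2 ratios were below 0 under every scaling tried, with a median of -0.82. Fasn read 614 in unstimulated Th2-4th cells and 1867 in unstimulated Th2-1st cells (log2 ratio -1.61, spread 0.63). Fads2 read 48.1 and 222 (-2.21, spread 0.78), the Th2-4th reading lying below the array median, and Scd1 80.4 and 176 (-1.13) in the same order. Fads1 (-0.95), Elovl6 (-0.69), Scd2 (-0.68), Acly (-0.50) and Acaca (-0.38) were lower without passing the threshold. The Acly value came from a probe set of a kind that can cross-hybridise. The next brightest Acly probe set gave -0.05 and the next after that 0.01, so the direction of Acly is not settled. Among the sterol enzymes, Idi1 read 672 in unstimulated Th2-4th and 1697 in unstimulated Th2-1st cells (-1.34), and a second probe set gave -2.27. Fdps, the farnesyl diphosphate synthase at the branch to isoprenoids, read 806 and 1750.3 in the same order (-1.12). A second Fdps probe set read 8.47 at most on any array and reversed the direction when it was averaged in. The sterol enzymes had a median of -0.21, with Sqle at -0.83, Cyp51 at -0.71 and Msmo1, the highest, at 0.61. The 5 genes of the SREBP system ran from 0.03 for Insig2 to 0.47 for Srebf1, with a median of 0.36 and all above 0, though Insig2 is below 0 once the arrays are centred or quantile-normalized. The exporters Abca1 (0.88) and Abcg1 (0.48) were also on the higher side.

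In stimulated cells, again none of the 34 genes was over 2-fold in Th2-4th against Th2-1st cells, and 6 were under 0.5-fold (Mvk, Pmvk, Fdps, Dhcr7, Scd2 and Fads2), against 17.2% and 12.7% of all genes. Of the 33 genes above the array median, 5 were under, against 11.4% over and 7.96% under among 11093 genes. The median was -0.24, or -0.48 after centring, and that of all genes 0.10 as deposited, or -0.14 after centring. Of all calls, 57.5% were over 2-fold as deposited, 44.4% after centring and 51.2% after quantile normalization. Fdps read 639.6 in stimulated Th2-4th cells and 1797 in stimulated Th2-1st cells (-1.49, spread 0.53), so this gene was low in Th2-4th cells with and without stimulation. Scd2 read 1770.4 and 4227 (-1.26), Dhcr7 58.4 and 229.8 (-1.98) and Pmvk 218 and 464 (-1.09) in the same order. Mvk read 22.1 in Th2-4th and 51.5 in Th2-1st cells (-1.22, spread 0.98), both below the array medians, and had 0.24 when set to them. Fads2 read 65.6 in Th2-4th and 138 in Th2-1st cells (-1.07). Hmgcs1 was the highest of the list, with 5205 in Th2-4th and 3177 in Th2-1st cells (0.71, spread 0.51), and its 3 other bright probe sets gave 0.73 to 0.82. Fasn, the gene with one of the largest gaps without stimulation, had -0.57 with it. Markers of dividing cells were lower as well: 5 of 6 measured proliferation genes were under 0.5-fold in Th2-4th cells both without stimulation (median -1.59) and with it (median -2.05), their median signal being 3371 in unstimulated Th2-4th and 10624 in unstimulated Th2-1st cells, and 2043 in stimulated Th2-4th and 9663 in stimulated Th2-1st cells. The part of proliferation in the stage ratios was not tested.

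**Figure D4:**
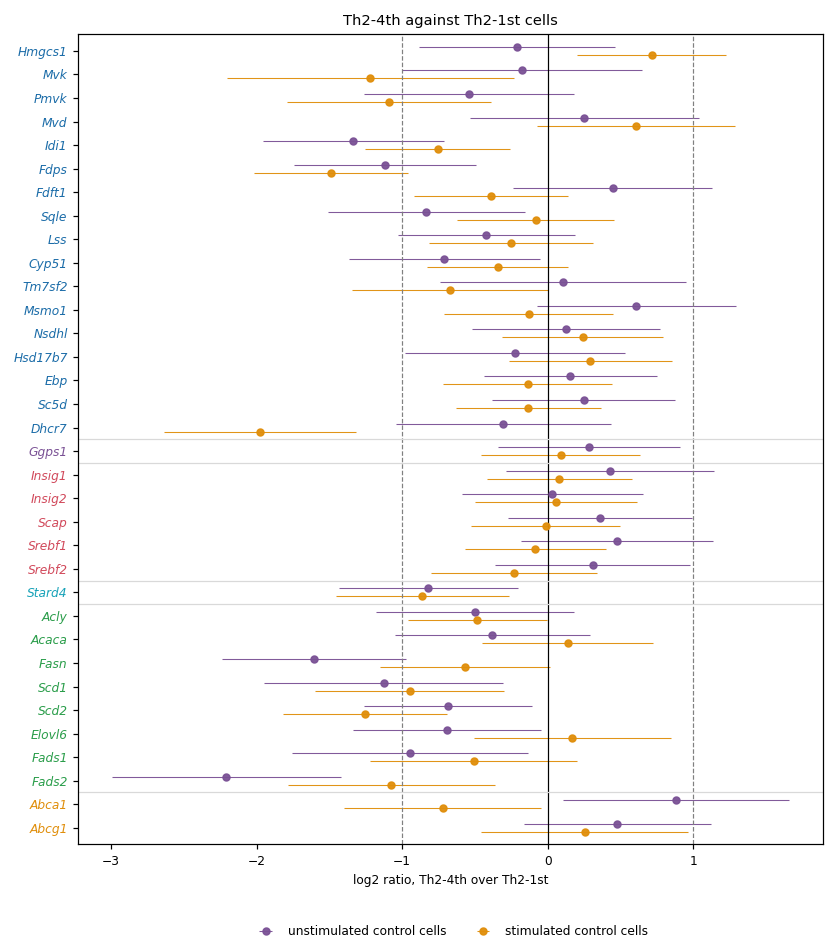
Log2 ratio of Th2-4th over Th2-1st control cells for each of the 34 genes, unstimulated (purple) and stimulated (orange); 1 array per condition, bars and dashed lines as for the anti-TCR ratios. No gene lies to the right of the 2-fold line, and Fdps and Fads2 lie to the left of it in both comparisons.

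After GATA3 knockdown few of these genes passed 2-fold, as did few of all genes above the array median. The counts were not tested against the array. In Th2-4th cells 2 of 34 were over 2-fold (Mvk and Dhcr7) and none under 0.5-fold, against 10.6% and 10.6% of all genes. Of the 31 genes above the array median 1 was over (Dhcr7), against 3.00% over and 3.49% under among 11045 genes. In Th2-1st cells none was over and 1 was under (Lss), against 13.3% and 7.49% of all genes, and 4.42% and 2.26% of 10962 genes above the array median. Over all calls of that culture 64.1% were over 2-fold as deposited, 55.8% after centring and 51.9% after quantile normalization. The list's median was 0.12 in Th2-4th and -0.07 in Th2-1st cells, against 0.01 and 0.05 for all genes, and the list's value in Th2-1st cells had no settled sign, being 0.0058 with the mean over probe sets. No gene passed the threshold in both cultures.

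Both raised genes had been low on the stimulated control array of Th2-4th cells, which is the denominator here and the numerator of the anti-TCR and stimulated stage ratios, so these values are not independent. Dhcr7 read 137 with GATA3 siRNA, 58.4 with control siRNA and 304 in unstimulated control cells of Th2-4th culture, a knockdown log2 ratio of 1.23 (spread 0.59), or 0.91 when signals below the array median were set to it. In Th2-1st cells it read 247 with GATA3 siRNA and 229.8 with control siRNA (0.10). Mvk read 62.1 with GATA3 siRNA and 22.1 with control siRNA in Th2-4th cells (1.49, spread 0.93), both below the array median, and the log2 ratio was -0.037 when they were set to it. The GATA3 siRNA readings of both genes lay between those of the stimulated and unstimulated control arrays. Lss, lanosterol synthase, read 414 with GATA3 siRNA and 971 with control siRNA in Th2-1st cells (-1.23, spread 0.26), and 563 and 816 in the same order in Th2-4th cells (-0.53). A probe set of Lss less open to cross-hybridisation gave -0.79 in Th2-1st cells, lower but short of the threshold, and 0.15 in Th2-4th cells.

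In Th2-4th cells, 12 of the 17 sterol enzymes had a knockdown log2 ratio above 0 (median of the 17, 0.32), while 11 of 17 were below 0 in Th2-1st cells (median -0.15). Of all 18194 genes, 9226 were above 0 in Th2-4th cells (median 0.01) and 8013 below 0 in Th2-1st cells (median 0.05). The counts were not tested against the array. Centring the arrays turned Sc5d above 0 in Th2-4th cells, and Sqle and Dhcr7 below 0 in Th2-1st cells. Examples in Th2-4th cells were Pmvk (0.83, spread 0.35), Idi1 (0.62, spread 0.24), Sqle (0.48, spread 0.25) and Hmgcs1 (0.47, spread 0.20). Hmgcs1 read 7202 with GATA3 siRNA and 5205 with control siRNA in Th2-4th cells, and 2844 and 3177 in the same order in Th2-1st cells. Its 4 other probe sets gave 0.47 to 0.66 in Th2-4th cells. In Th2-1st cells they gave 0.09 to 0.19, against -0.16 for the one used, so the direction of Hmgcs1 there is not settled. Idi1 was on the higher side in both cultures, with 2671 and 1739.7 in Th2-4th cells (0.62) and 3957 and 2941 in Th2-1st cells (0.43). On the lower side in Th2-4th cells were Hsd17b7 (-0.48), Mvd (-0.47) and Lss. Cyp51, the gene most raised by stimulation, had 0.04 in Th2-4th and -0.26 in Th2-1st cells.

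The fatty acid genes had knockdown medians of -0.06 in Th2-4th and -0.02 in Th2-1st cells. Acly had 0.07 and -0.09, Fasn -0.39 and -0.20, and Fads1 -0.05 and 0.04. Scd1 had the lowest Th2-4th ratio (-0.75) at signals of 42.1 with GATA3 siRNA and 71.1 with control siRNA, both below the array median. Scd2 had 0.47 in Th2-4th and -0.43 in Th2-1st cells. In the SREBP system all ratios lay between -0.32 (Insig1, Th2-4th) and 0.40 (Insig2, Th2-4th), and Srebf2 had 0.19 and -0.01. Abcg1 had 0.36 and 0.68, or -1.01 and 1.24 as the mean over its probe sets, Abca1 0.17 and -0.61, Stard4 0.56 and -0.04, and Ggps1 0.08 and -0.18. The knockdown ratios of the 2 cultures share no array. The Th2-4th ratio was the higher in 23 of 34 genes, against 8450 of all 18194 genes. The median difference was 0.20, against -0.05 for all genes, and neither was tested.

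**Figure D5:**
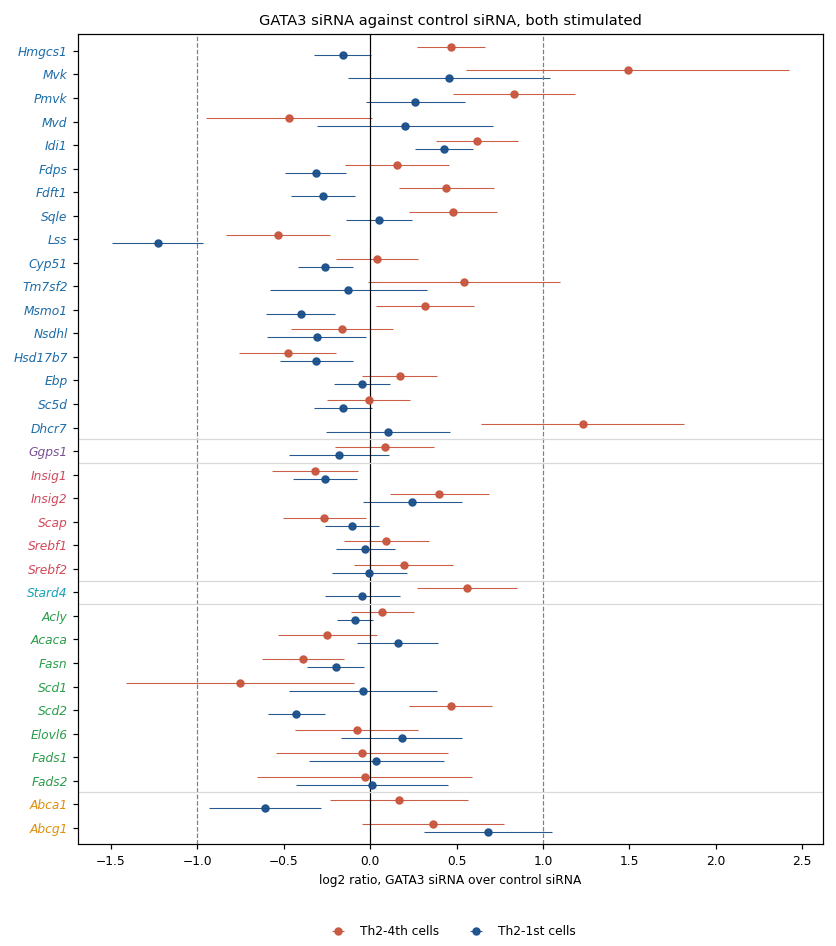
Log2 ratio of GATA3 siRNA over control siRNA, both stimulated, for each of the 34 genes in Th2-4th (red) and Th2-1st (blue) cells; 1 array per condition, bars and dashed lines as for the anti-TCR ratios. Mvk and Dhcr7 in Th2-4th cells and Lss in Th2-1st cells are the points past 2-fold, and the bar of Mvk spans 0.93 to each side.

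Genes that supply, move or store lipids outside the list gave a mixed picture. Of 39 such genes 32 were measured. After stimulation 8 were over 2-fold and 6 under 0.5-fold in Th2-4th cells, against 18.7% and 21.6% of all genes. In Th2-1st cells 4 were over and 8 under, against 17.5% and 16.9%. These counts were not tested against the array. Raised in both cultures, with log2 ratios in Th2-4th and then Th2-1st cells, were Hsd17b12, the ketoreductase of fatty acid elongation (1.81 and 1.61), Tmem97, a sterol-regulated binding partner of NPC1 (1.45 and 1.59), and the acyl-CoA synthetase Acsl4 (1.34 and 1.02). Lowered in both were Lpin1, a phosphatidate phosphatase (-3.12 and -3.004), Mylip, an LXR target that marks lipoprotein receptors for breakdown (-2.75 and -1.49), the acetyl-CoA synthetase Acss2 (-2.67 and -1.65), the elongase Elovl5 (-1.85 and -1.31) and the lysosomal sterol transporter Npc1 (-1.01 and -1.06). Osbpl5, an oxysterol-binding protein gene, had -7.66 and -4.55, with stimulated signals of 3.93 and 9.93, far below the array medians. Of the genes named here as LXR targets, Abcg1 and Mylip fell in both cultures, whereas Abca1, read from its brightest probe set, passed the threshold in neither. These genes are not a full set of LXR targets, and LXR activity was not tested. For Th2-4th over Th2-1st cells, 5 were over and 3 under without stimulation, against 19.5% and 12.3% of all genes. With stimulation 2 were over and 2 under, against 17.2% and 12.7%. Tmem97 was lower in both comparisons (-2.18 and -2.32). The knockdown gave 1 over and 2 under in Th2-4th cells, against 10.6% and 10.6% of all genes. In Th2-1st cells it gave 4 over and 2 under, against 13.3% and 7.49%. Of the 28 genes above the array median in each pair, 0 were over and 1 under in Th2-4th cells, against 3.00% and 3.49%. In Th2-1st cells 1 was over and 1 under, against 4.42% and 2.26%. The gene over was Nr1h3, with 91.7 under GATA3 siRNA and 30.5 under control siRNA (1.59, spread 0.62). Its control reading lay below the array median of 61.8, and its Th2-4th log2 ratio was 0.82. Cyp11a1, which turns cholesterol into pregnenolone, was lower in both cultures (-1.94 and -2.38).

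The reading of a gene depended on its probe set to a degree that bears on these values. For the genes with a second probe set above the array medians, the 2 probe sets differed by a median of 0.30 (20 genes) and 0.39 (23 genes) on the log2 scale in the anti-TCR ratios of Th2-4th and Th2-1st cells, by 0.32 and 0.38 (21 genes each) in the stage ratios without and with stimulation, and by 0.18 (17 genes) and 0.19 (21 genes) in the knockdown ratios of Th2-4th and Th2-1st cells. They had the same sign in 17 of 20 and 18 of 23, in 19 of 21 and 16 of 21, and in 14 of 17 and 13 of 21. With the mean over all probe sets, dim ones included, some genes passed 2-fold that did not with the brightest: Fdft1 and Fads2 in the anti-TCR ratio of Th2-1st cells (-1.05 and -1.40), Fdft1 and Cyp51 in the stage ratio without stimulation (-1.05 and -1.58), Scd1 in that with stimulation (-1.498) and Fads2 in the knockdown of Th2-4th cells (1.34).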

How the data were processed

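RNA was measured on 6 Affymetrix Mouse Genome arrays, 1 per condition. The authors deposited linear signal intensity values, 1 per probe set, made in Affymetrix Expression Console (version and algorithm: not given in the sources used here). They arrived scaled, since the mean between the lowest and highest 2% was equal on all arrays. Depth has no meaning for arrays, and the number of arrays limits the precision.

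In the platform annotation 34958 of the 45101 probe sets had a single gene, 932 had several and 9211 had none, and 34754 of the 34958 (99.4%) matched RefSeq. Log2 ratios of array pairs were taken from the brightest single-gene probe set of each gene. The spread was 1.4826 times the median absolute deviation among 500 genes nearest in signal. Samples were grouped by their labels. Counting and spread were tested on simulated data.

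The genes and lists were chosen with earlier results of these data known. Every measured gene of the list was named, and other lipid genes only when past 2-fold with the higher signal above the array median. Alternatives were the mean over probe sets, the largest ratio among them, no cross-hybridising probe sets, centred or quantile-normalized arrays, low signals raised or left out, and the study's threshold for a substantial change (3.16-fold). Promoter windows came from RefSeq (GRCm38.p6). The array's own genome build was not used. Python 3.11.15, numpy 2.4.6, pandas 2.3.3 and matplotlib 3.10.9 were used.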

Additional observations from a re-analysis of the deposited data

Results flagged for a closer look

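For 3 genes the knockdown moved in opposite directions in the 2 cultures by more than the spread in each, and the difference was not tested. Of the 34 genes, 17 lay beyond the spread in Th2-4th and 13 in Th2-1st cells. How many of all genes meet the same rule was not counted, so the 3 are not set apart from the array. Scd2, the stearoyl-CoA desaturase gene, had a log2 ratio of 0.47 in Th2-4th and -0.43 in Th2-1st cells, a difference of 0.89, and a dimmer probe set gave 0.91 and -0.12. Msmo1, the methylsterol oxidase, had 0.32 and -0.40, a difference of 0.72. Fdft1, squalene synthase, had 0.44 and -0.27, a difference of 0.71, and its next probe set gave 0.74 and -0.35, while 2 dim probe sets with signals below the array medians were above 0 in both cultures.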

How the results depend on the processing

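Of 1423 values of single genes under the alternatives, 104 had the opposite sign to the reported value, 36 of them with the largest ratio and 34 with the mean over probe sets. For 6 of the 104 the reported ratio was past 2-fold, and these are given next. Apart from those 6 values, 1314 moved by less than the spread and 103 by more. When signals below the array median were set to it, Mvk turned to -0.037 for the knockdown in Th2-4th cells and to 0.24 for stimulated Th2-4th over Th2-1st cells, because its signals lay below that median. Fdps turned in the stage ratio without stimulation to 0.43 (mean over probe sets) and 1.97 (largest ratio), and with stimulation to 0.30 and 2.08, because of a probe set with signals of 8.47 at most. The list's median for the knockdown in Th2-1st cells (-0.07) turned to 0.0058 with the mean over probe sets and 0.05 with the largest ratio, and those of the other 5 comparisons kept their sign under the alternatives run. In the knockdown of Th2-4th cells the count over 2-fold became 6 with the largest ratio, 1 with the low-signal filter and 0 with low signals raised or with the threshold for a substantial change. The count under 0.5-fold there became 1 with the mean and 3 with the largest ratio. In the knockdown of Th2-1st cells the count over became 1 with the mean and 4 with the largest ratio, and the count under became 4 with the largest ratio and 0 with the mean, without cross-hybridising probe sets or with the substantial threshold. For anti-TCR stimulation, the substantial threshold left 3 over in Th2-4th cells and 2 over and 1 under in Th2-1st cells, and the largest ratio gave 8 under in Th2-1st cells. For the stage ratio without stimulation, the largest ratio gave 1 over and 8 under, centring gave 8 under and the substantial threshold 1 under. With stimulation, the largest ratio gave 4 over and the substantial threshold 1 under. The substantial threshold is stricter by construction, and the largest ratio picks extremes; otherwise the cause was not tested. Signals near the array median limit Mvk, Scd1 and Fads2. No array could be left out, with 1 per condition. No paired analysis was possible because each group has 1 array and the columns carry no replicate number.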
